A study of Homo sapiens with 4 samples.

Results

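The APOBEC3 gene cluster lies on chromosome 22 and holds 7 genes, APOBEC3A, APOBEC3B, APOBEC3C, APOBEC3D, APOBEC3F, APOBEC3G and APOBEC3H, all transcribed from the plus strand. Open chromatin at these genes was taken from 4 ATAC-seq peak lists, one for each group of HK1 cells, an established nasopharyngeal carcinoma line. A peak was assigned to the cluster when it overlapped the annotated body of a member in GRCh38 or the 10 kb before it. By this rule 9 of 59629 peaks were assigned for WT, 11 of 67470 for WT-IFN-γ, 8 of 63203 for sgFLI1 and 8 of 59923 for sgFLI1-IFN-γ. Merged where they overlapped, they formed 13 regions. Taken as one locus from 38942741 to 39104067 (161327 bp), the cluster held 15 regions, and 2 of these lay between the windows of the members.

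The groups were wild-type cells left untreated (WT) or exposed to the cytokine interferon-γ (WT-IFN-γ), and cells in which the gene of the ETS transcription factor FLI1 had been targeted with a guide RNA, untreated (sgFLI1, called FLI1-KO) or with IFN-γ (sgFLI1-IFN-γ). The labels give no dose or time of IFN-γ, although the paper states a time of exposure for its ATAC-seq. The labels also do not say whether the knockout cells are a clone or a pool. Each group held 1 library, so there was no spread over replicates to set a difference against, and groups were compared without a test. All intervals are 95% intervals that cover counting error only, and PCR reads without molecular identifiers are not independent molecules. In such bulk libraries a smaller share of cells with an open site and less opening per cell cannot be told apart.

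APOBEC3 proteins are cytidine deaminases that turn cytosine into uracil in single-stranded DNA. They restrict retroviruses and endogenous retroelements, and interferons are known to raise several of them in immune cells. APOBEC3A and APOBEC3B reach nuclear DNA and are known sources of C-to-T and C-to-G mutations in epithelial tumours. The genes arose by tandem duplication, so that stretches of one member recur almost unchanged at another.

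Across the whole series, the tag density of the libraries was between 6.86 and 8.84 tags per kb of genome, with both FLI1-KO libraries below both WT libraries. The unit used throughout is the summit pileup, the number of tags stacked over the highest point of a peak as recovered from its deposited fold enrichment and p-value, and the depth-scaled level is that pileup divided by the tag density of its library. At FLI1 itself 4 peaks were listed for WT and for sgFLI1-IFN-γ and 5 for each other library, which cannot show whether the gene was edited. Of 6 squamous epithelial marker genes, EPCAM and DSP had a peak within 1 kb of a start site in all 4 lists, KRT5 and CDH1 in 3, and KRT14 and TP63 in none. The T and B cell genes CD3D, CD3E, CD2, MS4A1 and CD79A and the leukocyte gene PTPRC had none in any list, whereas CD8A and the monocyte genes CD14, CSF1R and CD68 had one in all 4.

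The sequences under 3 of the summits, which carry the contrasts described further on, are given here as 201 bases of GRCh38 centred on the summit of 1 list (WT-IFN-γ in APOBEC3A, WT before APOBEC3B and sgFLI1 before APOBEC3H), from 5′ to 3′ on the plus strand. Capitals would mark matches to the 4 motifs that were searched on both strands, and none of these windows holds one. The motifs were GAAANNGAA, bound by interferon regulatory factors (IRF), CCGGAAGT for the ETS family of FLI1, TGANTCA for AP-1 and GGGANTTCC for NF-κB, and no match shared letters with a match of another motif. The first window, chr22:38954114-38954314, belongs to the region in APOBEC3A that was listed with IFN-γ in WT cells. The second, chr22:38973641-38973841, precedes APOBEC3B and was lowest in sgFLI1. The last, chr22:39090713-39090913, precedes APOBEC3H and was highest in sgFLI1.
APOBEC3A intronic region: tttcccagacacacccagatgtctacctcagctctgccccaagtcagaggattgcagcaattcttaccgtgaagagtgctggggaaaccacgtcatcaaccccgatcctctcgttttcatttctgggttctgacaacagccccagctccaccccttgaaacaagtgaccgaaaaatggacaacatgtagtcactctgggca
APOBEC3B upstream region: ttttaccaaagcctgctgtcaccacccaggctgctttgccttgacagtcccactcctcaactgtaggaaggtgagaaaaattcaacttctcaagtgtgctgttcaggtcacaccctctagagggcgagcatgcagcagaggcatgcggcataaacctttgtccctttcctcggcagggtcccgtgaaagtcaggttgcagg
APOBEC3H upstream region: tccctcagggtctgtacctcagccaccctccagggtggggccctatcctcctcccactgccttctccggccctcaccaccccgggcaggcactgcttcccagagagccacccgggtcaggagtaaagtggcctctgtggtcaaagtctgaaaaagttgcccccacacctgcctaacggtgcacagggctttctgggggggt

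The question for the locus as a whole was how open it was. Per 100 kb it held 6.82 peaks for WT, 8.06 for WT-IFN-γ, 5.58 for sgFLI1 and 6.20 for sgFLI1-IFN-γ. Chromosome 22 as a whole held between 2.41 and 2.71, which is too low because its full reference length, unsequenced stretches included, was counted. The 250 kb on either side of the cluster held 7.60, 9.80, 8.20 and 8.60 in the same order. The median of the cluster was below that of its flanks in every list. Its median summit pileup was 28 tags for WT, 30 for WT-IFN-γ, 32 for sgFLI1 and 25.5 for sgFLI1-IFN-γ, against 52, 50, 48 and 41 tags in the flanks. Of the 13 regions 7 were in every list, against 43.9% of the 93211 regions of the series, and 3 were in WT-IFN-γ alone, against 11.6% of all. Of the 2 regions between the windows, one (39002943 to 39003715) was in every list with 35 tags for WT, 34 for WT-IFN-γ and 30 and 29 for the untreated and treated FLI1-KO libraries.

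**Figure D1:**
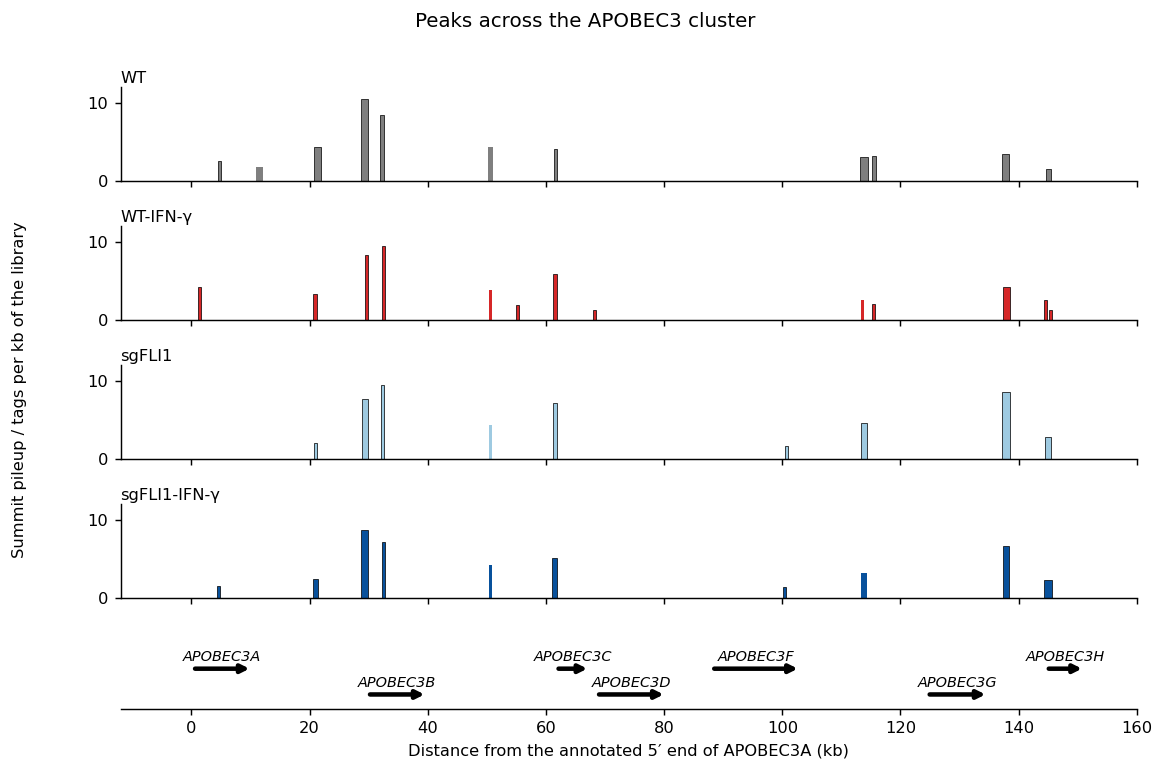
Peaks of the 4 libraries across the APOBEC3 cluster, by distance in kb from the annotated 5′ end of APOBEC3A; bar height is the summit pileup divided by the tags per kb of the library, bars without an outline are peaks outside the windows of the members, and arrows are the annotated gene bodies. The tallest bars stand at the start and in the second intron of APOBEC3B in WT, WT-IFN-γ and sgFLI1-IFN-γ, and no list has a bar at the start of APOBEC3F or APOBEC3G.

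APOBEC3B (ENSG00000179750.16, 38982347 to 38992804), a nuclear member tied to tumour mutations, held the region with the highest level of the cluster in each list. Its promoter region (38981469 to 38982570) was listed in all 4 libraries with summits close to the start site of the canonical transcript at 38982347. The summit pileup there was 84 tags for WT (67.0 to 104), 73 for WT-IFN-γ (57.2 to 91.8), 53 for sgFLI1 (39.7 to 69.3) and 60 for sgFLI1-IFN-γ (45.8 to 77.2). Scaled for depth these were levels of 10.4, 8.26, 7.65 and 8.75, highest in untreated WT cells and lowest in untreated FLI1-KO cells, and all 4 intervals overlapped. An AP-1 match, TGACTCA at 38982323 to 38982329, lay within 100 bases of the summit in each list and covered it in WT and sgFLI1.

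The second APOBEC3B region (38984670 to 38985527) lay in intron 2 and was about as open as the promoter. It held 68 tags for WT (52.8 to 86.2), 84 for WT-IFN-γ (67.0 to 104), 66 for sgFLI1 (51.0 to 84.0) and 49 for sgFLI1-IFN-γ (36.3 to 64.8). The levels were 8.45, 9.50, 9.52 and 7.14. Divided by tag density all the intervals overlapped, although those of the tags did not for WT-IFN-γ and sgFLI1-IFN-γ. AP-1 matches, TGAGTCA at 38985137 to 38985143 and again at 38985181 to 38985187, fell within 100 bases of the summit in all 4 lists. So did an NF-κB match in this intron region. It was the only one of the 15 regions with an NF-κB match that close to a summit. The share of all peaks that hold one there was between 1.301% and 1.37%.

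The most distant APOBEC3B region (38973289 to 38974583) stood 8.61 kb before the start. Its pileup was 35 tags for WT (24.4 to 48.7), 30 for WT-IFN-γ (20.2 to 42.8), 14 for sgFLI1 (7.65 to 23.5) and 17 for sgFLI1-IFN-γ (9.90 to 27.2). Both FLI1-KO libraries were below both WT libraries. The levels were 4.35, 3.39, 2.02 and 2.48.

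At APOBEC3A (ENSG00000128383.14, 38952741 to 38963184), which deaminates DNA in the nucleus and is known as an interferon-responsive gene of myeloid cells, no region was in more than 2 lists. The intronic region (38953870 to 38954327) was listed in WT-IFN-γ alone, with 37 tags (26.1 to 51.0) over a local background of 5.15. It sits in intron 1 of a longer coding transcript, ENST00000402255.5, and 3.40 kb before the start of the canonical one at 38957609. By significance alone, at the same local background scaled for depth, a peak would have been listed from 14 tags for WT. In each FLI1-KO library it would have been listed from 12 tags. A filter on reproducibility, which the paper's methods describe, is not part of these limits or of those given later. The WT-IFN-γ level would correspond to 33.7, 29.0 and 28.7 tags at those depths, each above the limit of its list. Among the 16999 WT-IFN-γ peaks without a WT counterpart, 7.49% had a pileup of 37 tags or more, and their median was 14.

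The APOBEC3A start region (38957125 to 38957658) was listed in WT with 21 tags (13 to 32.1) and in sgFLI1-IFN-γ with 11 tags (5.49 to 19.7). The WT peak covered the canonical start at 38957609, but the sgFLI1-IFN-γ peak ended before it, at 38957511. The region was absent from the WT-IFN-γ list, where 11 tags would have been listed, and from the sgFLI1 list, where 10 would have been. The WT window held an AP-1 match at 38957548 to 38957554. A further WT region (38963722 to 38964845), past the end of APOBEC3A and outside the windows, held 15 tags (8.40 to 24.7) and was in no other list.

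APOBEC3C (ENSG00000244509.4, 39014257 to 39020352), a weaker restriction factor of retroviruses, had its promoter region (39013759 to 39014675) in all 4 lists. The pileup was 33 tags for WT (22.7 to 46.3), 52 for WT-IFN-γ (38.8 to 68.2), 50 for sgFLI1 (37.1 to 65.9) and 35 for sgFLI1-IFN-γ (24.4 to 48.7). The levels of 4.103, 5.88, 7.21 and 5.10 placed untreated WT lowest and untreated FLI1-KO highest. An AP-1 match, TGATTCA at 39014233 to 39014239, lay in the windows of WT, sgFLI1 and sgFLI1-IFN-γ. The single IRF match found within 100 bases of a summit in the cluster was TTCTCTTTC on the minus strand at 39014037 to 39014045. It began 95 bases before the WT-IFN-γ summit, and the summits of the other lists lay farther than 100 bases from it. This promoter also falls in the window of APOBEC3D, the next gene. An APOBEC3C upstream region (39007653 to 39008082), 6.36 kb before the start, was in WT-IFN-γ alone with 17 tags (9.90 to 27.2), against listing limits of 10, 9 and 9 tags for WT, sgFLI1 and sgFLI1-IFN-γ.

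APOBEC3D (ENSG00000243811.12, 39021113 to 39033277), APOBEC3F (ENSG00000128394.17, 39040604 to 39055972) and APOBEC3G (ENSG00000239713.9, 39077067 to 39087743) can be packed into HIV-1 particles that lack Vif. They had the fewest listed summits within 1 kb of their start sites. The APOBEC3D start region (39020785 to 39021150) was in WT-IFN-γ alone with 11 tags (5.49 to 19.7), close to the limit of 8 tags for WT and 7 tags for each FLI1-KO library. No list had a summit within 1 kb of the canonical start of APOBEC3F or APOBEC3G. The only APOBEC3F region (39052961 to 39053550) lay over the untranslated part of exon 7, with 12 tags for sgFLI1 (6.20 to 21.0) and 10 for sgFLI1-IFN-γ (4.80 to 18.4), and was in neither WT list. In each WT library it would have been listed from 8 tags. An AP-1 match, TGACTCA at 39053337 to 39053343, lay within 100 bases of the summit in both FLI1-KO lists.

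Both regions before APOBEC3G were far from its start. Their summits lay in intron 1 of the long noncoding gene ENSG00000289963, except the WT summit of the farther region, which lay in no annotated transcript. The nearer one (39067965 to 39068647), 8.89 kb before the start, held 26 tags for WT (17.0 to 38.1) and 18 for WT-IFN-γ (10.7 to 28.4). In each FLI1-KO library 12 tags would have been listed there, and neither list held it. The farther one (39065957 to 39067158) held 25 tags for WT (16.2 to 36.9), 23 for WT-IFN-γ (14.6 to 34.5), 32 for sgFLI1 (21.9 to 45.2) and 22 for sgFLI1-IFN-γ (13.8 to 33.3). It touches the window of APOBEC3G only at its edge, and the WT-IFN-γ and sgFLI1-IFN-γ peaks there ended before that window.

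APOBEC3H (ENSG00000100298.16, 39097224 to 39104067), whose protein is known in stable and unstable forms, had 2 regions in every list. The upstream one (39089975 to 39091250), 6.43 kb before the start, held 28 tags for WT (18.6 to 40.5), 37 for WT-IFN-γ (26.1 to 51.0), 59 for sgFLI1 (44.9 to 76.1) and 46 for sgFLI1-IFN-γ (33.7 to 61.4). Its levels were 3.48, 4.19, 8.51 and 6.71, and both FLI1-KO libraries were above both WT libraries. An AP-1 match lay within 100 bases of its summit in WT-IFN-γ only, at 39090557 to 39090563, outside the window printed above. The start region (39096949 to 39098320) held 13 tags for WT (6.92 to 22.2), 23 for WT-IFN-γ (14.6 to 34.5) beside a second peak of 12, 20 for sgFLI1 (12.2 to 30.9) and 16 for sgFLI1-IFN-γ (9.15 to 25.98). The WT peak began just past the canonical start at 39097244, and the other libraries had a peak over it. The RefSeq table of promoters held 1 of the 7 members, APOBEC3H. The bases before the first annotated transcript start, chr22:39096994-39097223 of GRCh38.p14 on the plus strand, are shown because every list had a peak at or beside this start, and they hold none of the 4 motifs.
APOBEC3H promoter: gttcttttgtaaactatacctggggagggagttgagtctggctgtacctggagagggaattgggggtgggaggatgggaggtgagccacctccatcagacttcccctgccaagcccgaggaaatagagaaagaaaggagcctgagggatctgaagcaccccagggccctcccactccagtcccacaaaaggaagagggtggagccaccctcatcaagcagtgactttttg

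**Figure D2:**
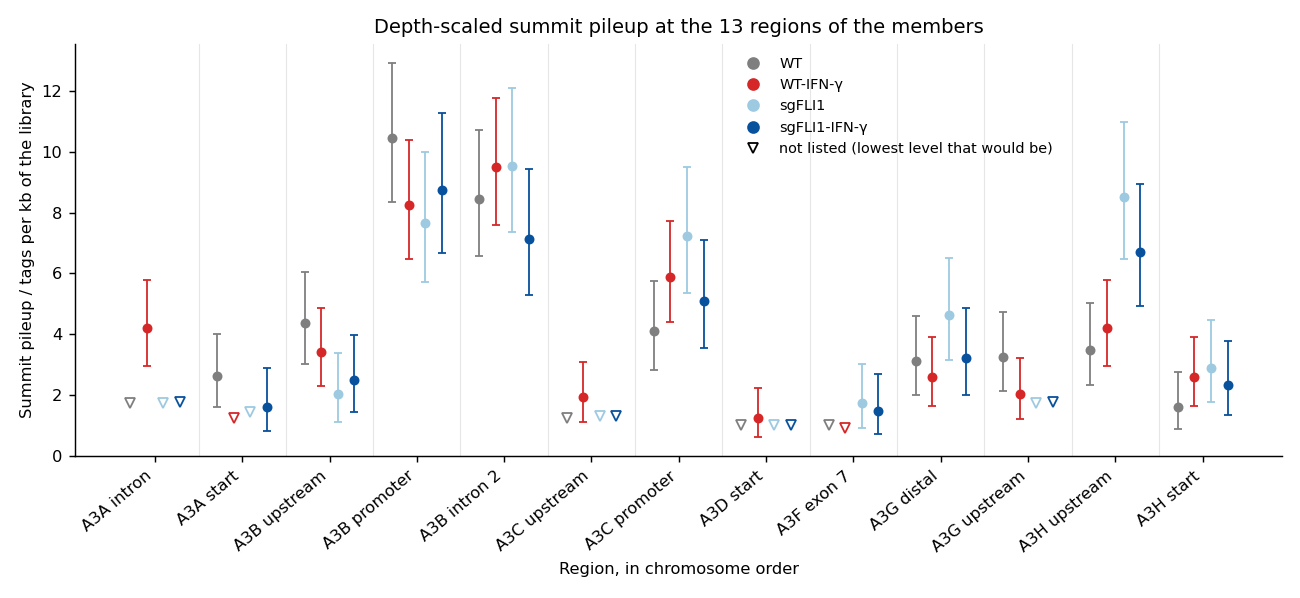
Depth-scaled summit pileup (tags at the summit divided by tags per kb of the library) at the 13 regions of the members. The axis shortens APOBEC to A, and points are the 4 libraries with exact Poisson 95% intervals. Open triangles mark the lowest level that would have been listed, by significance alone, in a library without a peak there. The APOBEC3B promoter and intron regions are high in all libraries, the intronic APOBEC3A region has a point in WT-IFN-γ alone, and the APOBEC3H upstream region is higher in both FLI1-KO libraries than in both WT ones.

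The first comparison asked which regions of the cluster were gained or lost by WT cells on IFN-γ. Among 11 WT-IFN-γ peaks, 3 had no WT peak at the same place, or 27.3% (6.02 to 61.0%), against 25.2% of all WT-IFN-γ peaks. They were the APOBEC3A intronic, APOBEC3C upstream and APOBEC3D start regions. Of the 9 WT peaks 1, at the APOBEC3A start, had no WT-IFN-γ peak, or 11.1% (0.281 to 48.2%), against 15.9% of all. A region gained with IFN-γ was thus found at 3 of the 7 members, against 32.0% of 19970 protein-coding genes, and a lost one at 1 member, against 21.5%. These shares were near the background.

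At regions with 1 peak in each list the levels could be compared directly. With IFN-γ in WT cells, 0 of 7 regions were at least 1.5-fold higher (6.12% of all one-to-one peaks) and 1 was at least 1.5-fold lower (7.22% of all). The lower one was the nearer APOBEC3G region, at 0.630 of the WT level (0.325 to 1.19). The APOBEC3C promoter stood at 1.43-fold (0.910 to 2.29). Both calls move with the scaling, since the APOBEC3C promoter passed 1.5-fold when log2 ratios were centred on all one-to-one peaks (0.59) or on those of chromosome 22 (0.61), and the APOBEC3G region no longer did with the latter (-0.57). The APOBEC3B promoter stood at 0.791 (0.570 to 1.10) and its intron at 1.12 (0.807 to 1.57). The median log2 ratio of the 7 regions was -0.26, against -0.07 over all one-to-one peaks, and each interval included 1.

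For FLI1-KO cells, IFN-γ against untreated gave 1 of 8 sgFLI1-IFN-γ peaks without an sgFLI1 peak, at the APOBEC3A start, or 12.5% (0.316 to 52.7%), against 18.0% of all. In the other direction 0 of 8 sgFLI1 peaks were lost, which allows a share of up to 36.9%, against 22.2% of all. Gained regions were found at 1 of the 7 members (22.9% of protein-coding genes) and lost ones at 0 (28.0%). All one-to-one peaks had a median log2 ratio of -0.14 in this pair, and the log2 values that follow are relative to it. The APOBEC3B upstream and promoter regions stood at 0.43 and 0.33, and the other 6 regions between -0.39, at the farther APOBEC3G region, and -0.11, at exon 7 of APOBEC3F. At the APOBEC3H start, the sgFLI1 summit was at 39097287 and the sgFLI1-IFN-γ summit at 39098255. The ratio there therefore compares different places in the region. Without that centring 0 of 8 regions were at least 1.5-fold higher (2.43% of all) and 0 were at least 1.5-fold lower (6.87%), and each interval included 1. With the local background subtracted 1 was lower, the farther APOBEC3G region at a log2 ratio of -0.60.

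The next comparison set untreated FLI1-KO cells against untreated WT cells. Of the 8 sgFLI1 peaks 1, at exon 7 of APOBEC3F, had no WT peak, or 12.5% (0.316 to 52.7%), against 25.3% of all. Of the 9 WT peaks 2, at the APOBEC3A start and the nearer APOBEC3G region, had no sgFLI1 peak, or 22.2% (2.81 to 60.01%), against 21.4% of all. Among 7 regions 3 were at least 1.5-fold higher (12.8% of all) and 1 was at least 1.5-fold lower (8.39%). With the local background subtracted 4 were higher, the farther APOBEC3G region being added at a log2 ratio of 0.69. The APOBEC3H upstream region was 2.44-fold higher (1.53 to 3.98), above 98.3% of all one-to-one peaks. The APOBEC3C promoter was 1.76-fold higher (1.11 to 2.82). The APOBEC3H start was 1.79-fold higher, with an interval of 0.845 to 3.91 that included 1. Its sgFLI1 summit, at 39097287, lay before the WT peak, whose summit was at 39097883. That ratio therefore compares different places in the region. The APOBEC3B upstream region stood at 0.464 of the WT level (0.231 to 0.885), above 1.23% of all one-to-one peaks. The median log2 ratio of the 7 regions was 0.57, against 0.05 over all one-to-one peaks and 0.08 over those on chromosome 22.

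The last comparison set the genotypes against each other with IFN-γ in both. Of the 8 sgFLI1-IFN-γ peaks 2, at the APOBEC3A start and exon 7 of APOBEC3F, had no WT-IFN-γ peak, or 25% (3.19 to 65.1%), against 19.8% of all. Of the 11 WT-IFN-γ peaks 4 had no sgFLI1-IFN-γ peak, or 36.4% (10.9 to 69.2%), against 29.0% of all, and these were the 3 regions gained in WT cells and the nearer APOBEC3G region. Among 6 regions 1, the APOBEC3H upstream region, was at least 1.5-fold higher (10.5% of all), at 1.60-fold (1.02 to 2.54), and 0 were at least 1.5-fold lower (10.7%). The APOBEC3C promoter stood at 0.867 (0.548 to 1.36) and the APOBEC3B upstream region at 0.730 (0.378 to 1.37). The untreated and the treated pair share no library, and the APOBEC3H upstream region was higher in the FLI1-KO library of each. With 1 library per group, a difference between genotypes and one between libraries cannot be told apart.

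**Figure D3:**
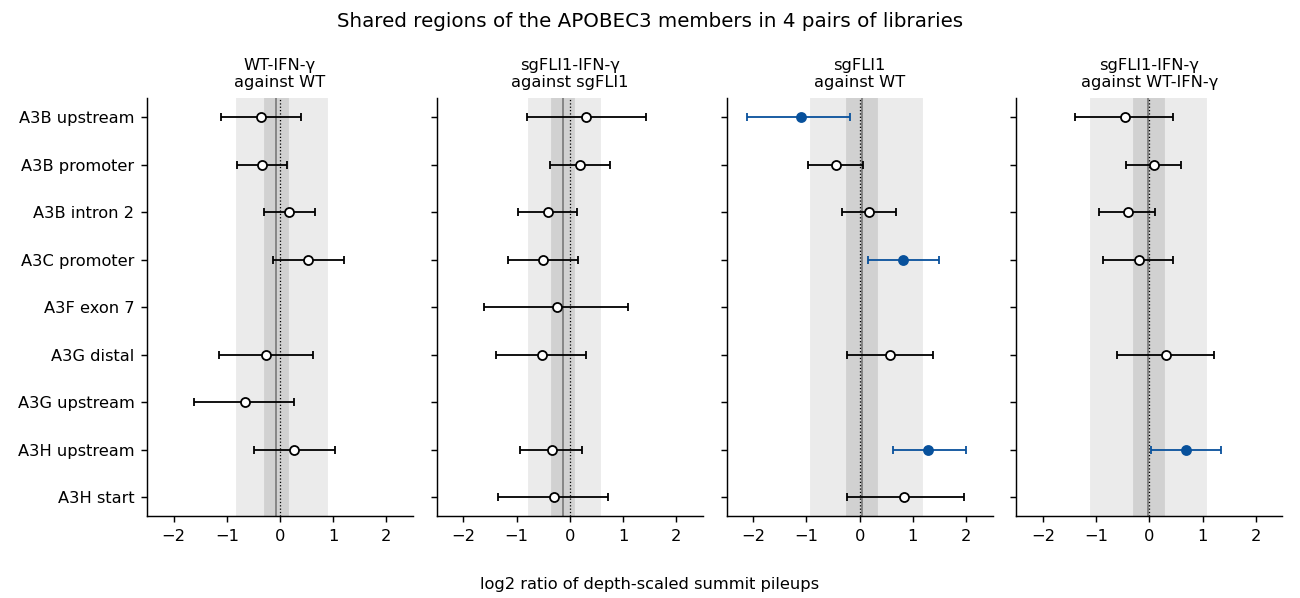
Log2 ratio of depth-scaled summit pileups at the regions of the APOBEC3 members with 1 peak in each list, in 4 pairs of libraries; points carry exact conditional 95% intervals (counting error), filled points have an interval that leaves out 0, the grey line, dark band and light band are the median, the middle 50% and the middle 95% of all one-to-one peaks. Filled points appear at the APOBEC3B upstream, APOBEC3C promoter and APOBEC3H upstream regions without IFN-γ and at the APOBEC3H upstream region with it.

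The start sites of the members differ in how many of their 50-base words occur only once in GRCh38. The paper's methods give no read length for the ATAC-seq, and longer or paired reads could be placed better than such words. The 300 bases around the APOBEC3F start matched the APOBEC3G start at 98.0% identity over 300 bases and the APOBEC3D start at 100% over 155 bases. The share of 50-base words that occur once in GRCh38 was 100% at the starts of APOBEC3A, APOBEC3C and APOBEC3H and 96.0% at APOBEC3B, but 52.6% at APOBEC3D, 34.7% at APOBEC3F and 54.6% at APOBEC3G. Of 447 protein-coding 5′ ends on chromosome 22, 88.1% were entirely unique and 8.05% had a share under 90%. Per the study's methods, alignments of low mapping quality were removed. The 3 members with the fewest listed summits within 1 kb of their start had the lowest shares. APOBEC3A, with a share of 100%, had such a summit in WT and sgFLI1-IFN-γ only, and a peak over its start in WT alone. At APOBEC3D, APOBEC3F and APOBEC3G, closed chromatin and reads that could not be placed cannot be told apart. In the APOBEC3D start region the share was 20.5% over its whole length, where WT-IFN-γ held 11 tags. Over the APOBEC3A intronic and APOBEC3H upstream regions it was 100%.

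**Figure D4:**
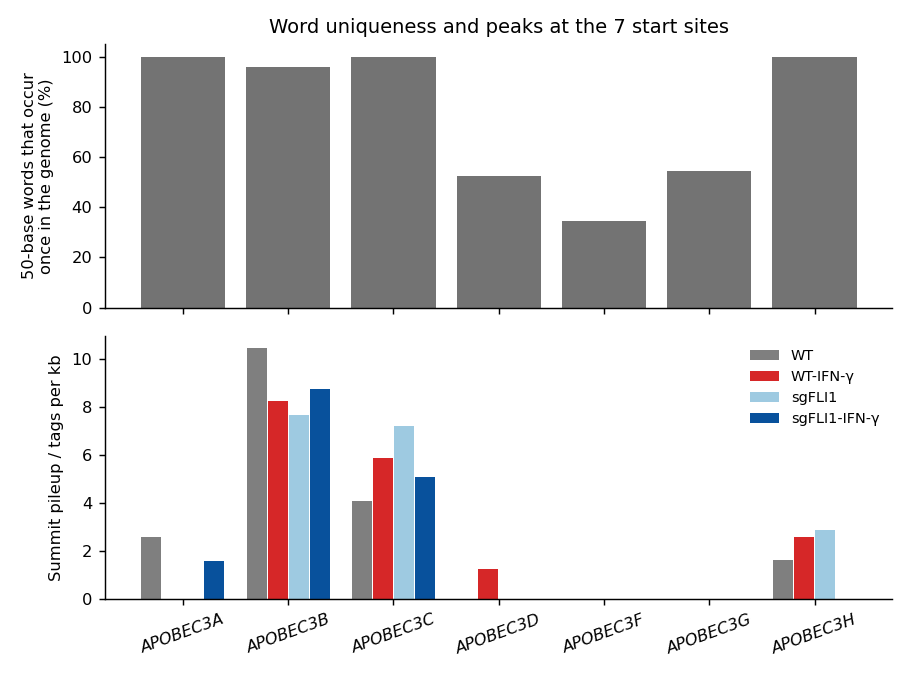
Share of 50-base words that occur once in GRCh38 in the 300 bases around the canonical start of each member (top, percent) and the highest depth-scaled summit pileup within 1 kb of that start in the 4 libraries (bottom; no bar means no listed summit). APOBEC3D, APOBEC3F and APOBEC3G have shares between 34.7% and 54.6%, and among these 3 only APOBEC3D has a bar, in WT-IFN-γ.

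The same duplication allowed the AP-1 match of the APOBEC3B promoter to be followed through the family. The 300 bases around the APOBEC3B start aligned to the APOBEC3C start at 90.8% identity over 292 bases, to APOBEC3D at 80.6% over 155, to APOBEC3F at 73.9% over 303 and to APOBEC3G at 73.3% over 300. The letters aligned with TGACTCA were TGATTCA at APOBEC3C, the substitution C4T counted from 1 at the 5′ end of the match. They still match TGANTCA only because the N of that motif allows any base at the changed position. At APOBEC3D, APOBEC3F and APOBEC3G the aligned letters lacked the sixth base and did not match.

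Motifs were searched only within 100 bases of summits, so the rest of a longer peak was not examined. Over all members, 4 of 9 WT peaks and 3 of 11 WT-IFN-γ peaks held an AP-1 match there. For sgFLI1 and for sgFLI1-IFN-γ it was 4 of 8 peaks each, and between 21.9% and 24.3% of all peaks of these lists held one. An IRF match was found at 1 of 11 peaks for WT-IFN-γ and at 0 peaks of the other lists, and between 5.47% and 9.09% of all peaks of the 4 lists held one. Within that reach no peak of the cluster held the ETS letters, which between 1.28% and 1.42% of all peaks did. The motif TGANTCA occurred in 7.71% of 35116 RefSeq promoters of 300 bases, GAAANNGAA in 8.11%, CCGGAAGT in 4.14% and GGGANTTCC in 1.85%.

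Gene lists related to the cluster by function or place were counted the same way, against the 32.0% of all protein-coding genes with a region gained in WT cells and the 22.9% with one in FLI1-KO cells. Of 7 genes for the repair of uracil and abasic sites 2 had a region gained with IFN-γ in WT cells and 1 in FLI1-KO cells. UNG encodes an enzyme that removes the uracil these enzymes leave. A place before its body, with no WT peak, had 82 tags for WT-IFN-γ (65.2 to 102). That peak lay at 109093280 to 109093816 of chromosome 12, and the body of UNG starts at 109097597. Whether the peak belongs to UNG or to another gene was not examined. In the APOL cluster on the same chromosome, which encodes apolipoproteins L, 4 of 6 genes had one in WT cells and 1 in FLI1-KO cells, and the peaks numbered 3 for WT and 8 for WT-IFN-γ, 6 for sgFLI1 and 7 for sgFLI1-IFN-γ. In WT-IFN-γ the gained regions included one at APOL3 with 49 tags (36.3 to 64.8) and one before the body of APOL6 with 43 (31.1 to 57.9). Of 10 protein-coding genes within 250 kb of the APOBEC3 cluster 4 had a region gained in WT cells and 4 in FLI1-KO cells. A gained region at SUN2, of the nuclear envelope, had 51 tags for WT-IFN-γ (37.97 to 67.1). Of those gained by sgFLI1-IFN-γ, one at CBX6, a Polycomb protein, had 37 tags (26.1 to 51.0) and one at NPTXR had 29 (19.4 to 41.6). A region at GTPBP1 with 50 tags for sgFLI1 (37.1 to 65.9) was missing from sgFLI1-IFN-γ.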

How the data were processed

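ATAC-seq, which cuts open chromatin with a transposase, was done on 4 libraries of HK1 cells, 1 for each combination of genotype and treatment. The authors deposited 1 MACS2 peak list per library on GRCh38. The submitters' processing notes name Trimmomatic 0.3, Bowtie2 2.3.4.1, SAMtools, Picard and MACS2 2.1.2. The paper's methods also describe keeping only reproducible peaks by their irreproducible discovery rate. Whether a list is from 1 replicate or pooled ones, or from before or after that step, is not given in the sources used here. The authors' columns hold a fold enrichment over background (a ratio), a −log10 p and a −log10 q per summit, and the deposited score column was not used.

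The summit pileup and local background of each peak were recovered together as the whole tag count whose fold and −log10 p match the deposited values to within 0.01, which succeeded for 100% of peaks. The tag density of a library was its lowest recovered background, taken as the genome-wide one, divided by the length of its shortest peak, taken as the extension of a tag. Levels are pileups divided by tags per kb. Poisson intervals for pileups, exact binomial (Clopper-Pearson) intervals for shares and exact conditional intervals for ratios are at 95%. Peaks sharing at least 1 base were matched, and ratios were taken only where 1 peak met 1 peak. A region counted as gained or lost when no peak of the other list shared a base with it, and 1.5-fold was the limit for a higher or lower level. A pileup that a list would hold was computed from the lowest significance listed and the local background. It takes no account of a filter on reproducibility, which could leave out peaks above it.

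Gene bodies and start sites came from GENCODE release 44, and promoter sequence from the RefSeq table. Motifs were searched on both strands within 100 bases of summits, and start sites were compared with blastn 2.17.0. All members were described, and of the other gene lists at most 8 genes with a gained or lost region were named, by −log10 q. A few genes and 1 sequence are not reported here. The members and lists were chosen with earlier results of these data known. On simulated lists 19977 of 19977 pileups, 800 of 800 removed peaks and 800 of 800 planted motifs were recovered. Python 3.11.15, pandas 2.3.3, scipy 1.17.1, pysam 0.24.0 and samtools 1.23.1 were used. Alternatives tried were stricter q limits, other gene windows and other rules for matching peaks for the counts, and other scalings for the ratios.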

Additional observations from a re-analysis of the deposited data

Results flagged for a closer look

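At 5 regions of the cluster the depth-scaled level moved in opposite directions with IFN-γ in WT and in FLI1-KO cells. They were picked for that. Without centring, the log2 effects in WT and FLI1-KO cells had the same sign at the farther APOBEC3G region (-0.26 and -0.53). They also did at the region from 39002943 to 39003715 (-0.18 and -0.03). The share of all one-to-one peaks that moved in opposite directions was not computed, so these 5 have no background. With 1 library per group the differences between WT and FLI1-KO cells were not tested, and their intervals cover counting error only. The value given is the log2 effect of IFN-γ in FLI1-KO cells minus that in WT cells. At the APOBEC3C promoter it was -1.02 (-1.91 to -0.13), from an effect of 0.52 in WT and -0.50 in FLI1-KO cells, and this was the only interval of the 5 that left out 0. Relative to the median of all one-to-one peaks in each pair the effects there were 0.59 and -0.36. The APOBEC3B upstream region had 0.65 (-0.59 to 1.89) and the APOBEC3B promoter 0.53 (-0.17 to 1.23). The APOBEC3B intronic region had -0.58 (-1.29 to 0.12) and the APOBEC3H upstream region -0.61 (-1.51 to 0.29).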

How the results depend on the processing

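The 4 medians of log2 ratios and the 28 single ratios were recomputed under 3 rescalings only, namely both centrings and subtraction of the local background. All kept their direction and moved by less than counting error, single ratios by at most 0.14, but the 1.5-fold calls at the APOBEC3C promoter and both APOBEC3G regions changed in at least 1 pair of libraries. Of 62 recomputed counts 27 moved, and all rest on few peaks. With −log10 q of at least 5, the peaks gained in FLI1-KO cells fell to 0, also when the other list was not limited. With −log10 q of at least 10, WT and sgFLI1 each kept 5 peaks, WT-IFN-γ kept 7 and sgFLI1-IFN-γ kept 4, in 8 regions with 4 in all lists, and 0 peaks were gained in FLI1-KO cells, 0 lost in WT and 1 lost in FLI1-KO cells. With gene bodies alone, and with 3 kb before them, WT had 5 peaks, WT-IFN-γ 7 and sgFLI1 5, in 8 regions with 4 in all lists. Over the whole span 2 peaks were lost in WT cells. When matching required an overlap of 50% of the shorter peak, 2 peaks were gained and 1 lost in FLI1-KO cells. When it required the summit inside the other peak, 5 were gained and 2 lost in WT cells and 1 was lost in FLI1-KO cells. No paired analysis was possible because each group has 1 library. Depth limits the cluster most at the regions listed with 10 to 17 tags.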
